A study of Mus musculus with 778 samples.

Results

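Genes of homologous recombination, the repair of DNA double-strand breaks by copying an intact sister or homologous molecule, were followed through mouse oocyte growth. They were *Mre11a*, *Rad50*, *Nbn*, *Atm*, *Atr*, *Brca1*, *Brca2*, *Rad54l* and *Fancd2*, taken by name, and 9 of 9 were found among the 23201 genes of the count table. The measurements came from single-cell RNA-seq of oocytes picked from the ovaries of wild type female ICR mice, with no further allele or treatment in any stage. Non-growing oocytes (NGO, under 20 μm in diameter) were from mice 3 to 4 days old, and growing oocytes of 30 to 45 μm (GO1), 50 to 55 μm (GO2), 60 to 65 μm (GO3) and fully-grown oocytes (FGO, over 70 μm) were from mice 3 to 4 weeks old. A difference between NGO and any other stage was therefore also one of mouse age, and stage and age cannot be told apart there. The table held 46 NGO, 51 GO1, 26 GO2, 44 GO3 and 56 FGO cells from 4 libraries. The library of a cell was not given by the names of the cells and the mice behind a stage were not given by the labels, so each stage was 1 pooled sample and no p-value was computed.

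Values are counts of unique molecular identifiers (UMIs), random tags that let copies of 1 molecule be counted once. Each gene was summed over the oocytes of a stage, and the sum was expressed per 1000000 UMIs of that stage (CPM). Intervals in parentheses are exact 95% intervals that cover counting error only, not the spread between oocytes, mice or libraries. A call needed a difference of 2-fold or more in CPM between the stages and 10 CPM or more in the higher one. "Rose" and "fell" are kept for such calls. The stage totals were 24976634 to 64311908 UMIs, and CPM is a share of the RNA counted, not an amount per oocyte. The GO1 cells were shallow (median 110146 UMIs, against medians of 540432 to 972294 in the other stages), and the 10 deepest cells held 80.4% of the GO1 UMIs and 73.2% of the GO2 UMIs, so both sums rest on few cells. All 10 oocyte markers tested (such as *Zp3*, *Gdf9* and *Ddx4*) reached 10 CPM in every stage, with a summed level of 26190 CPM in NGO, then 14134, 15737, 16456 and 20077 CPM in GO1, GO2, GO3 and FGO. From NGO to GO1, *Figla* differed most among them toward lower levels (597 to 65.5 CPM), followed by *Ddx4* (342 to 65.2 CPM). *Bmp15* (128.62 to 825.48 CPM) and *Oosp1* (274.39 to 733.98 CPM) differed toward higher levels. *Dazl* was nearly equal in both stages, and the remaining oocyte markers were lower in GO1. The 10 granulosa cell markers summed to 14.3 CPM in NGO, then 43.8, 36.4, 35.8 and 20.6 CPM in GO1, GO2, GO3 and FGO, with *Foxl2* and *Amh* at most at 0.233 CPM. Of these markers, 2 reached 10 CPM in GO1, 1 in GO2 and in GO3 and 0 in NGO and FGO. They were *Cyp19a1*, at 1.11 CPM in NGO, then 16.3, 13.3, 6.70 and 1.54 CPM, and *Nr5a2*, at 6.91 CPM in NGO, then 14.5, 8.05, 12.04 and 7.84 CPM. Stromal and theca markers summed to 2.40 to 8.69 CPM and blood markers to 1.68 to 4.68 CPM. The part of these markers, and of depth where not stated, in the differences between stages was not tested.

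As background, the MRN complex of MRE11, RAD50 and NBN binds a broken DNA end, starts its resection and activates the ATM kinase. Resected DNA coated with RPA recruits ATR, the kinase that answers stalled forks and single-stranded DNA. BRCA1 promotes resection and, through PALB2, recruits BRCA2, a mediator of strand exchange, and RAD54L is a DNA translocase that acts when the broken strand invades the intact duplex. FANCD2 acts where strands are crosslinked and is activated by ubiquitin. Oocytes make and repair programmed breaks in meiotic prophase around birth and then stay arrested through growth, when breaks that persist or arise anew are handled by the same machinery.

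The summed share of the 9 genes in the RNA was similar in all stages, while single members differed from NGO in opposite directions. Together they made up 707 CPM in NGO, then 758, 687, 720 and 796 CPM in GO1, GO2, GO3 and FGO. *Rad50* and *Brca2* held 79.2% to 87.2% of these sums, so the sum says little about the other members. From NGO to GO2, *Mre11a*, *Nbn*, *Atm* and *Fancd2* fell, and these 4 genes were still lower in FGO than in NGO. *Atr* was also lowest in GO2 and lower in FGO than in NGO, but its largest difference from NGO was 1.73-fold. *Brca2* was higher than NGO in every later stage, by at most 1.55-fold. *Brca1* was 1.10- to 1.26-fold higher in GO1, GO3 and FGO. Its GO2 over NGO ratio of 1.02 (0.933 to 1.13) included equal levels, and that direction held in 4 of 7 other ways of summing or scaling. *Rad50* and *Rad54l* were at most 1.48-fold from their NGO value in any stage.

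**Figure D1:**
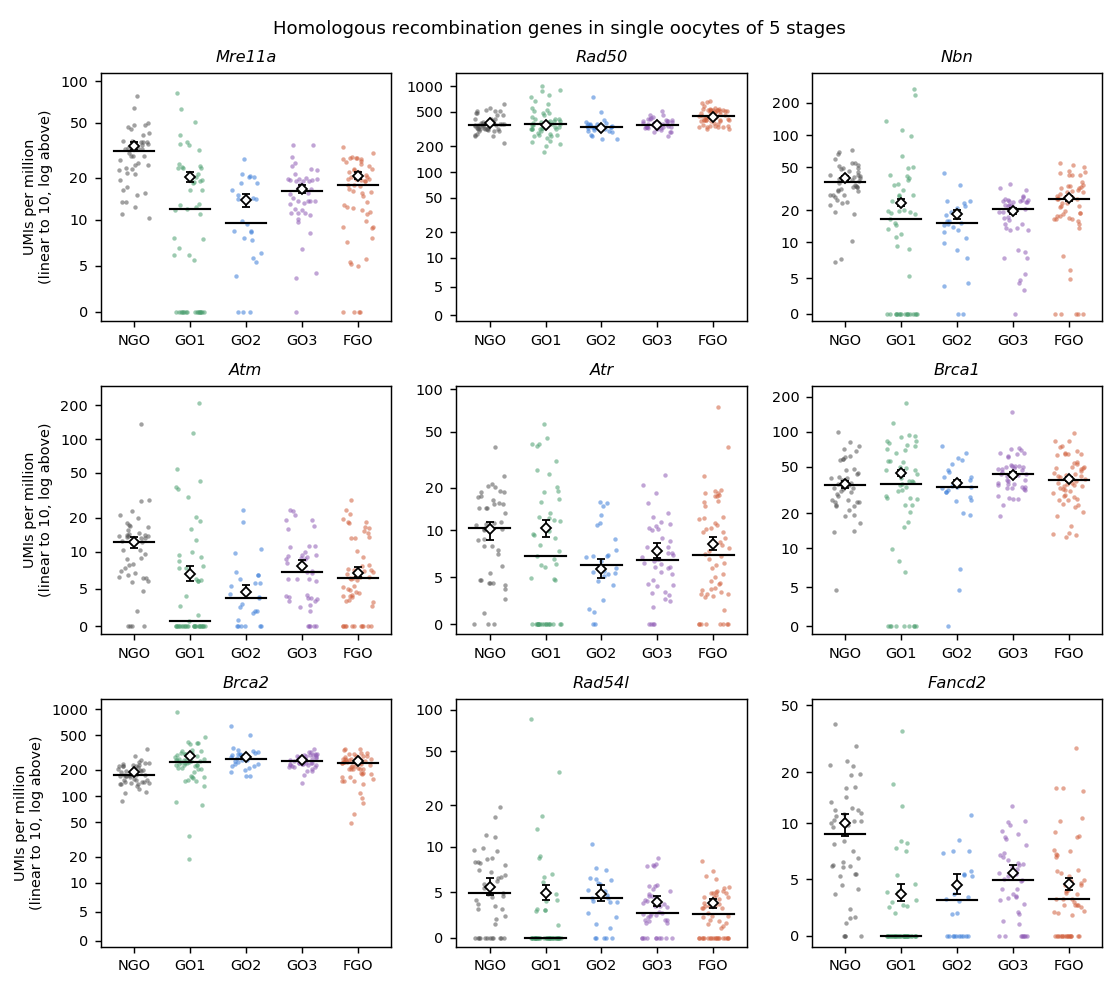
UMIs per 1000000 of each gene (y axis, linear to 10 and logarithmic above) in single oocytes of the 5 stages (x axis). Each point is 1 cell, the black bar is the median cell, and the diamond with its bars is the summed CPM with its counting interval. The NGO diamond is the highest for Mre11a, Nbn, Atm, Rad54l and Fancd2 and the lowest for Brca1 and Brca2, and many GO1 cells lie at 0 for the genes with low levels.

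Of the MRN genes, *Mre11a* encodes the nuclease of the complex (NCBIM37 chromosome 9, 14589098 to 14641567, plus strand). Its summed level was 34.1 CPM in NGO (31.8 to 36.4), then 20.3, 13.8, 16.7 and 20.8 CPM in GO1, GO2, GO3 and FGO. NGO was thus the highest stage and GO2 the lowest, FGO and GO1 had overlapping counting intervals, and every other neighbour in the order was apart. The NGO level was 1.67-fold that of GO1 (1.502 to 1.868), which is under the 2-fold limit. It was 2.23-fold without the 10 deepest cells of each stage and 2.03-fold by the mean over cells, both past the limit. *Mre11a* fell 2.47-fold from NGO to GO2 (2.17 to 2.80). In single NGO oocytes the lowest, median and highest values were 10.3, 31.3 and 77.8 CPM, and 46 of 46 cells had a UMI. In GO2 they were 0, 9.67 and 27.3 CPM, and 0 of 26 cells lay above the NGO median. Of the other stages, 8 of 51 GO1 cells, 2 of 44 GO3 cells and 1 of 56 FGO cells lay above it. The ranges of single cells overlapped between all stages, but the NGO median lay above the upper quartile of every other stage.

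The *Mre11a* promoter is shown because this gene has the lower GO2 level just described and carries a pair of CCAAT boxes close to its start. The 250 bases before the RefSeq start, on the plus strand of GRCm38.p6 at chr9:14784404-14784653, are printed 5′ to 3′ with CCAAT, or ATTGG where the box is on the opposite strand, in capitals.
Mre11a: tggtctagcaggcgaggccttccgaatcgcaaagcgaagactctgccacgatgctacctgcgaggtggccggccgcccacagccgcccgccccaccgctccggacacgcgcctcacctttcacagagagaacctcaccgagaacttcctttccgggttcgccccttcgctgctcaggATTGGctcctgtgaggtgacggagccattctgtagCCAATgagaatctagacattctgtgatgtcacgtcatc
The boxes begin at offsets -73 (opposite strand) and -38 (gene strand) from the start site. A link between the boxes and the level of *Mre11a* was not tested.

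*Rad50*, which encodes the long coiled-coil ATPase that bridges DNA ends (chromosome 11, 53463021 to 53520821, minus strand), did not follow its partner. Its level was 372 CPM in NGO, then 353, 321, 354 and 435 CPM in GO1, GO2, GO3 and FGO. FGO was the highest stage and GO2 the lowest, 1.35-fold apart, and only GO3 and GO1 had overlapping intervals. The FGO level was 1.23-fold that of GO3 (1.21 to 1.25), and 47 of 56 FGO oocytes lay above the NGO median of 351 CPM, compared with 24 of 44 in GO3. All 223 cells had a *Rad50* UMI, and every cell still had one after thinning to 20000 UMIs per cell. *Rad50* had no direction from NGO to GO1 that held, since the GO1 over NGO ratio was 0.948 in the sums and 0.852 to 1.10 over 7 other ways of summing or scaling.

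*Nbn* encodes nibrin, the subunit that recruits ATM (chromosome 4, 15885072 to 15919736, plus strand), and had nearly the course of *Mre11a*. Its level was 39.4 CPM in NGO (37.03 to 41.98), then 23.4, 18.2, 19.6 and 25.7 CPM in GO1, GO2, GO3 and FGO. NGO stood apart from all other stages, and the intervals of FGO and GO1 and those of GO3 and GO2 overlapped. *Nbn* fell 2.17-fold from NGO to GO2 (1.94 to 2.42) and 2.01-fold to GO3 (1.84 to 2.20), and *Mre11a* fell 2.04-fold to GO3 (1.85 to 2.24), the last pair only just past the limit. From GO3 to FGO the *Nbn* level was 1.31-fold higher (1.21 to 1.42) and that of *Mre11a* 1.24-fold higher (1.14 to 1.36), neither of which is a call. In single cells, 1 of 26 GO2 and 0 of 44 GO3 oocytes lay above the NGO median of 36.5 CPM, against 12 of 51 in GO1 and 10 of 56 in FGO. A few shallow GO1 cells were very high, the highest at 269 CPM from 6 UMIs among 22279, so that the mean over GO1 cells was 31.5 CPM and the NGO to GO1 difference of *Nbn* shrank to 1.18-fold on that scale.

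The kinases were low throughout. *Atm* (chromosome 9, 53247254 to 53344845, minus strand), the kinase of double-strand break signalling, was at 12.1 CPM in NGO, then 7.03, 4.56, 8.03 and 7.18 CPM in GO1, GO2, GO3 and FGO. NGO was highest and GO2 lowest, and the intervals of GO3 and FGO and those of FGO and GO1 overlapped. *Atm* fell 2.64-fold from NGO to GO2 (2.12 to 3.31). From GO2 to GO3 the level was 1.76-fold higher (1.43 to 2.19), but neither stage reached 10 CPM. In GO1 and in NGO, the mean over cells depended on 1 cell. With the highest GO1 cell, at 212 CPM from 9 UMIs among 42448, the GO1 mean was 13.5 CPM, and without it 9.53 CPM. The median GO1 cell was at 0.764 CPM. With the highest NGO cell, which had 9 UMIs among 66076, the NGO mean was 14.1 CPM, and without it 11.4 CPM. In NGO the lowest, median and highest cells were at 0, 12.1 and 136.2 CPM, and in GO2 at 0, 3.85 and 23.3 CPM.

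*Atr* (chromosome 9, 95758016 to 95852063, plus strand), the kinase that answers single-stranded DNA, differed less. Its level was 10.2 CPM in NGO, then 10.5, 5.89, 7.83 and 8.599 CPM in GO1, GO2, GO3 and FGO, and only GO2 stood apart from its neighbour in that order. From GO1 to GO2 the level was 1.78-fold lower (1.45 to 2.19). One cell held 26.4% of the GO1 UMIs of *Atr*, which is more than 1 cell held of any other member in any stage. The median cells were at 10.4, 7.29, 6.37, 6.81 and 7.41 CPM from NGO to FGO, so the GO1 sum lay above its median cell. Thinned to 20000 UMIs, 7 of 46 NGO, 9 of 51 GO1, 4 of 26 GO2, 4 of 44 GO3 and 8 of 56 FGO cells had an *Atr* UMI, with exact binomial intervals that all overlap.

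Between the mediators, *Brca1* differed little between stages and *Brca2* was higher after NGO. *Brca1* (chromosome 11, 101350078 to 101413269, minus strand) was at 35.4 CPM in NGO, then 44.7, 36.3, 43.03 and 39.2 CPM in GO1, GO2, GO3 and FGO. The highest and the lowest stage were 1.26-fold apart, and the median cells were at 34.9, 35.5, 33.5, 43.4 and 38.5 CPM in the same order. The GO1 over NGO ratio of the sums was 1.26 (1.15 to 1.38), and 1.08 by the mean over cells. Thinned to 20000 UMIs, 30 of 44 GO3 cells (68.2%) had a *Brca1* UMI, against 9 of 26 in GO2 (34.6%). The shares were 22 of 46 in NGO (47.8%), 27 of 51 in GO1 (52.9%) and 23 of 56 in FGO (41.1%). The exact binomial intervals of all stages overlapped. Thinned to 50000 UMIs, with shallower cells left out, the share was highest in NGO, followed by GO3, FGO, GO2 and GO1. These intervals overlapped as well. They take the cells of 1 pooled sample as independent, and overlap does not show that shares are equal. Whether detection of *Brca1* differed between stages was therefore not tested. No cell type that lacks these genes is in the data, so no background share can be set beside these shares.

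*Brca2* (chromosome 5, 151325205 to 151372321, plus strand), the mediator that PALB2 recruits, was higher in every growing stage than in NGO. Its level was 188 CPM in NGO (182 to 193), then 290.2 (284 to 297), 277, 261 and 251 CPM in GO1, GO2, GO3 and FGO. NGO was lowest and apart from every other stage, and only GO1 and GO2 overlapped. The GO1 over NGO ratio was 1.55 (1.49 to 1.60) and the FGO over NGO ratio 1.34 (1.30 to 1.38), both under the 2-fold limit. In single cells the lowest, median and highest values were 87.3, 173 and 345 CPM in NGO and 140, 255 and 351 CPM in GO3. Above the NGO median lay 39 of 51 GO1, 24 of 26 GO2, 43 of 44 GO3 and 44 of 56 FGO oocytes. The direction from NGO to GO1 was the same in 7 of 7 other ways of summing or scaling, with ratios of 1.29 to 1.73.

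The *Brca2* promoter is shown as that of the member furthest above its NGO level in later stages. Of the 6 members with a promoter found, it alone held an E2F-like motif. The 250 bases before the RefSeq start, on the plus strand of GRCm38.p6 at chr5:150522371-150522620, are printed 5′ to 3′ with the motif, which lies on the opposite strand and begins at offset -168, in capitals.
Brca2: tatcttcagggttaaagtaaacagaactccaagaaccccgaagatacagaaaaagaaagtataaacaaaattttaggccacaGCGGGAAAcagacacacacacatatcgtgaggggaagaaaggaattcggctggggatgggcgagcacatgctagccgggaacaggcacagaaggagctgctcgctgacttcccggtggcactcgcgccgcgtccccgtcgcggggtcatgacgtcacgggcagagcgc

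*Rad54l* (chromosome 4, 115766869 to 115796295, minus strand), the translocase of strand invasion, did not reach 10 CPM in any stage and could not be called. Its level was 5.56 CPM in NGO, then 4.90, 4.84, 3.95 and 3.76 CPM in GO1, GO2, GO3 and FGO. Every pair of neighbours in this order had overlapping intervals, while the NGO over FGO ratio was 1.48 (1.19 to 1.83). An exon of *Rad54l* overlaps the span of *Lrrc41* on the opposite strand, and the exons of *Lrrc41* were not looked up. *Lrrc41* was at 27.98, 4.86, 3.64, 4.58 and 9.55 CPM from NGO to FGO. The strand used in counting is not given in the sources used here, so UMIs from any shared exonic stretch cannot be told apart. *Atr* likewise has exons within the spans of 2 genes on the opposite strand, whose exons were not looked up. They are *1700065D16Rik*, which was at most at 0.161 CPM, and *Gm16794*, a lincRNA not analysed here.

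*Fancd2* (chromosome 6, 113481676 to 113547011, plus strand), a crosslink repair gene whose protein is activated by ubiquitin, had the largest difference between NGO and GO1 among the 9 genes. Its level was 10.04 CPM in NGO (8.84 to 11.4), then 3.74 (3.04 to 4.55), 4.52, 5.58 and 4.57 CPM in GO1, GO2, GO3 and FGO. NGO stood apart from all later stages, and each later stage overlapped the next in the order. *Fancd2* fell 2.69-fold from NGO to GO1 (2.12 to 3.42) and 2.20-fold from NGO to FGO (1.85 to 2.61). Both calls rest on an NGO level just above the 10 CPM limit and on 253, 100 and 294 UMIs. The NGO over GO1 ratio was 2.40 to 3.91 in 6 other ways of summing or scaling, but the call held in 1 of them, because the NGO level was under 10 CPM in the rest. The NGO over FGO ratio was 1.70 to 2.32 in 7 other ways. The median cell was at 9.04 CPM in NGO and at 0 in GO1, where 17 of 51 cells had a UMI. Thinned to 20000 UMIs, 7 of 46 NGO cells and 0 of 51 GO1 cells had one, and this 0 allows a share of up to 5.88%. *Fancd2* overlaps *Fancd2os* on the opposite strand, which had 0 UMIs in each of the 5 stages.

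**Figure D2:**
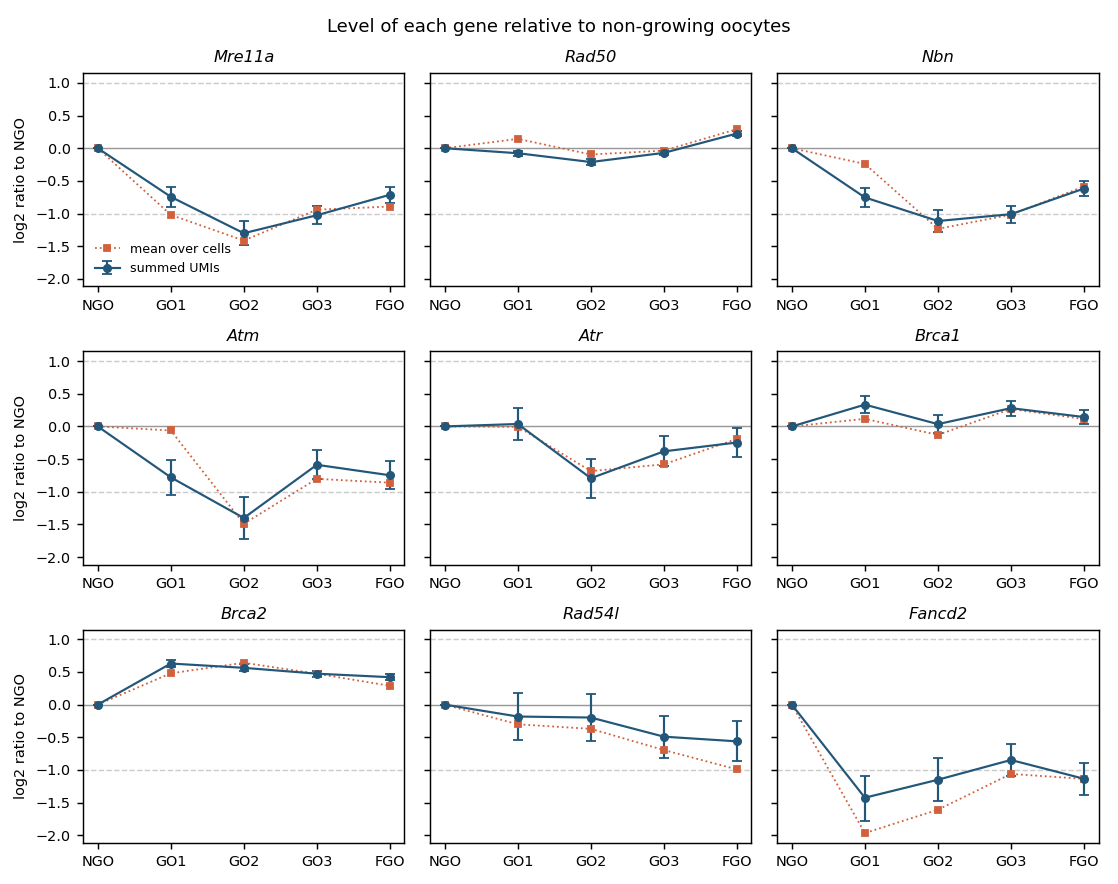
Log2 ratio of each stage to NGO (y axis) for the 9 genes by stage (x axis), from summed UMIs with counting intervals (blue) and from the mean over cells (orange). The dashed lines mark 2-fold, and Mre11a, Nbn, Atm and Fancd2 pass the lower one in GO2 while Brca2 lies above 0 in all later stages.

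Counted over the comparisons, few members passed the size rule. From NGO to GO1, 0 members rose and 1 of the 8 that reached 10 CPM fell (*Fancd2*), whereas 20.6% of all 8527 genes at 10 CPM rose and 25.7% fell, 46.3% in either direction. No member was called from GO1 to GO2 (percentage of all genes called, 3.14) or from GO2 to GO3 (4.35), or from GO3 to FGO (5.96), nor from GO1 to FGO (7.98 higher and 9.03 lower). From NGO to FGO, 1 of 8 fell (*Fancd2*), with 27.3% of all genes called in either direction. A comparison of NGO with GO2 and with GO3 was added after the levels had been seen. From NGO to GO2, 4 of 8 fell (*Atm*, *Mre11a*, *Fancd2* and *Nbn*) and 0 rose, against 30.5% of all genes that fell and 16.6% that rose. From NGO to GO3, 2 of 8 fell (*Mre11a* and *Nbn*), against 24.95% of all genes. The median log2 change from NGO to GO2 was -0.95 over the 8 members at 10 CPM and -0.79 over all 9, and that of all genes at 10 CPM was -0.33.

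At a limit of 1.5-fold, the members past the rule were 5 of 8 from NGO to GO1 (66.3% of all genes), 1 of 6 from GO1 to GO2 (14.7%), 5 of 8 from NGO to GO2 (67.4%), 4 of 8 from NGO to FGO (51.2%) and 4 of 8 from NGO to GO3 (63.2%), so the shares of members were close to or under those of all genes.

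Scaling changed these counts. DESeq2 size factors moved the median log2 change of all genes from NGO to GO2 by 0.29 and left 2 members past the rule (*Atm* and *Mre11a*), and TMM factors moved it by 0.33 and left 1 (*Atm*). *Mre11a*, *Nbn*, *Atm* and *Fancd2* were lower in GO2 than in NGO, and *Brca2* higher, in 7 of 7 other ways of summing or scaling. The plot of the NGO to GO1 change by setting shows that the sign of *Rad50*, *Nbn*, *Atm* and *Atr* there depended on the setting.

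**Figure D3:**
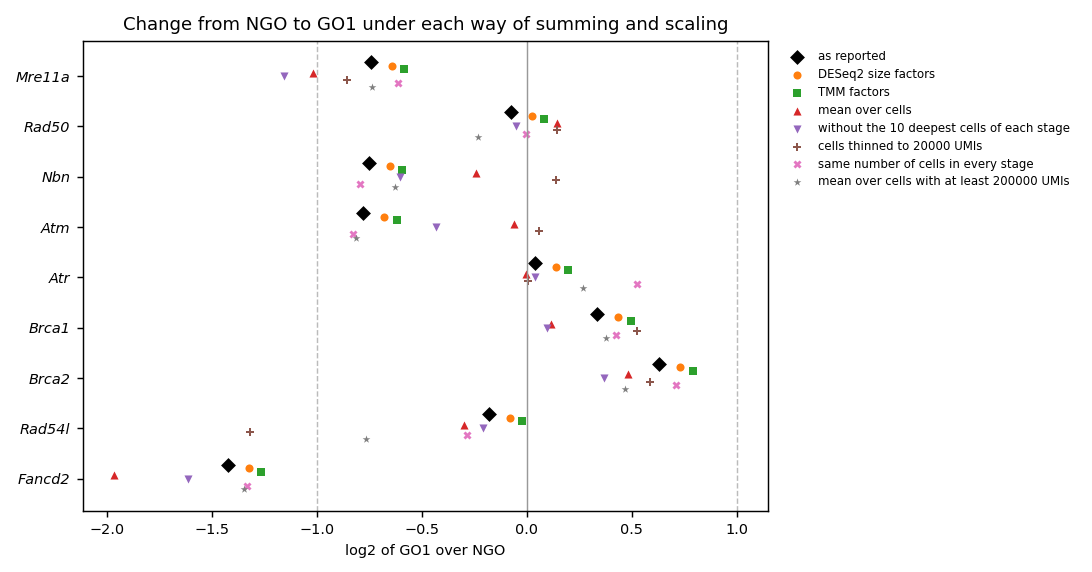
Log2 of GO1 over NGO (x axis) for each gene (y axis) with the summed CPM as reported (black diamond) and with 7 other ways of summing or scaling (coloured symbols). Fancd2 has no value for thinned cells, where GO1 had 0 UMIs, and only Mre11a, Brca1, Brca2, Rad54l and Fancd2 keep 1 sign in all values shown.

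The other repair genes were read from 6 lists. Their counts from NGO to GO1 stand beside the 20.6% of all genes at 10 CPM that rose and the 25.7% that fell, 46.3% in either direction, and most genes of each list, like most of all genes, did not pass the rule. In the strand exchange and end resection list, 1 of 19 genes at 10 CPM rose and 1 fell. *Rad51b*, a gene of strand exchange, rose from 13.6 to 50.1 CPM and fell again from 26.3 in GO2 to 10.2 in GO3. *Rad52*, an annealing factor, fell from 43.5 to 14.9 CPM. The median log2 change of these 19 genes was -0.12, with -0.15 for all genes at 10 CPM. Direct partners of the members were looked up after their values had been seen. *Palb2*, the bridge from BRCA1 to BRCA2, was at 25.6, 27.1, 28.95, 26.96 and 24.7 CPM from NGO to FGO. *Bard1*, the ubiquitin ligase partner of BRCA1, was at 9.25 CPM in NGO and 17.1 in GO1 and rose 2.10-fold from NGO to FGO (19.4 CPM).

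In the damage signalling list, 0 of 19 genes at 10 CPM rose and 5 fell, beside 20.6% and 25.7% of all genes. *Rad1*, part of the ring-shaped clamp that activates ATR, fell from 927 to 148.4 CPM and was at 243 CPM in FGO. *Chek2*, the kinase downstream of ATM, fell from 17.3 to 4.60 CPM. *Babam1* (203 to 89.4 CPM) and *Babam2* (22.1 to 10.6 CPM), scaffold genes of a BRCA1 complex, fell as well. *Mdc1*, a scaffold of break signalling that lies outside the naming rule and was named after its values were seen, was the fifth (28.7 to 13.9 CPM). The median log2 change of the 19 genes was -0.17. *Chek1*, the kinase downstream of ATR, looked up afterwards, was at 216 CPM in NGO and 413 in GO1, which is 1.91-fold and under the limit, and *Atrip*, the partner of ATR, was at 32.6 and 18.1 CPM.

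In the Fanconi anaemia list, 1 of 7 genes rose and 1 fell. *Ube2t*, the enzyme that carries the ubiquitin put on FANCD2, rose from 363 to 949 CPM and was at 803 CPM in FGO, and *Fance*, of the core complex, fell from 25.7 to 11.96 CPM. *Fanci*, whose product pairs with FANCD2, was looked up afterwards and stayed under 10 CPM (7.46 in NGO and 6.09 in GO1). *Fancd2* and *Ube2t* therefore lay on opposite sides of the 2-fold limits from NGO to GO1.

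In the list of junction processing helicases and nucleases, 1 of 9 rose and 1 fell. *Wrn*, the Werner helicase, rose from 8.89 to 35.9 CPM, and *Top3a*, a topoisomerase that unlinks joined duplexes, fell from 23.7 to 7.10 CPM. In the end joining list, 2 of 10 rose and 2 fell. *Nhej1* (25.3 to 79.5 CPM) and *Lig4* (17.1 to 47.3 CPM), of the ligation step of end joining, rose, and *Lig4* fell again to 21.8 CPM in GO2. *Parp1*, a sensor of strand breaks, fell from 120 to 17.5 CPM, and *Xrcc1*, its partner in single-strand break repair, from 233 to 89.04 CPM.

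In the meiotic recombination list, 1 of 7 rose and 2 fell. *Mei4*, needed for programmed breaks, rose from 2.70 to 74.1 CPM and then fell from 76.4 in GO2 to 29.3 in GO3 and 3.51 in FGO. *Mnd1*, a helper of strand invasion, fell from 145.9 to 58.4 CPM and *Mlh3*, a crossover factor, from 11.1 to 3.36 CPM. *Dmc1*, the meiotic recombinase, looked up afterwards, was at most at 0.754 CPM. The median log2 changes of the genes at 10 CPM in these 4 lists, from Fanconi anaemia to meiotic recombination, were -0.0036, 0.13, -0.41 and -0.63. In later consecutive steps, the only calls in the 6 lists were those of *Lig4*, *Rad51b* and *Mei4* given above. From GO1 to FGO, 1 junction processing gene and 1 end joining gene rose, beside 7.98% of all genes. The latter was *Parp1* (17.5 to 41.5 CPM), a call outside the naming rule. In the same comparison, 1 strand exchange gene and 1 meiotic recombination gene fell, beside 9.03% of all genes. Of the list genes named by the rule, which leaves out *Mdc1* and *Bard1*, the calls of *Babam2*, *Fance* and *Mlh3* held in 5 of 7 other ways of summing or scaling, those of *Mnd1* and of the later fall of *Lig4* in 4 of 7, and the others in 6 or 7.

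**Figure D4:**
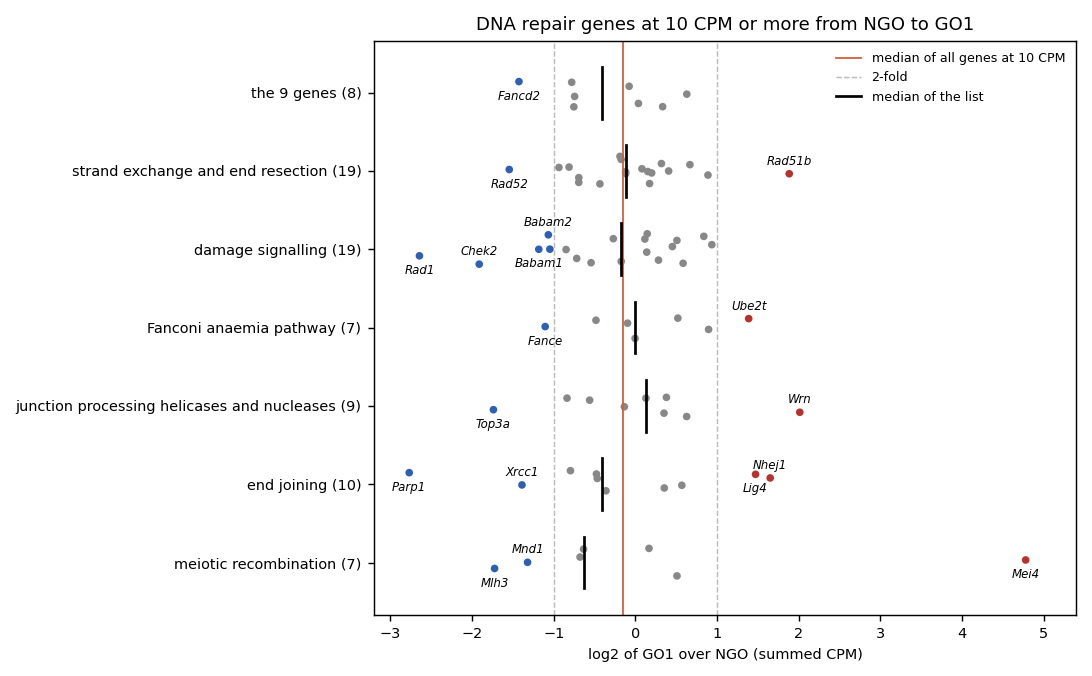
Log2 of GO1 over NGO of summed CPM (x axis) for the genes at 10 CPM or more in the 9 genes and the 6 repair lists (y axis, number of genes in brackets). Red and blue points passed the 2-fold limit upward and downward, black bars are medians of the points shown and the orange line is the median of all genes at 10 CPM, and in each row most points lie between the dashed 2-fold lines.

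In single oocytes, the median number of members with a UMI was 9 of 9 in NGO, GO2, GO3 and FGO and 6 in GO1. With cells thinned to 20000 UMIs it was 4 in NGO and GO1, 3 in GO2 and 3.5 in GO3 and FGO. The lower GO1 value with all UMIs stood beside the lower depth of GO1 cells. At 20000 UMIs the medians of 3 to 4 of 9 leave little room for a difference, and the part of depth was not tested. The highest cells of several members were shared. A single GO1 cell of 39670 UMIs had the highest GO1 value of *Rad50* (1008 CPM), *Brca1* (176 CPM) and *Brca2* (933 CPM), and an NGO cell of 51400 UMIs had the highest NGO value of *Mre11a*, *Atr*, *Rad54l* and *Fancd2* from 1 to 4 UMIs each.

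Promoters were found for 6 of the 9 members (*Mre11a*, *Atm*, *Atr*, *Brca1*, *Brca2* and *Rad54l*). In windows of 300 bases, 250 before the start and 50 after it, they held 28 CpG in *Atm*, 26 in *Mre11a*, 25 in *Brca2*, 22 in *Atr*, 19 in *Brca1* and 13 in *Rad54l*. The median was 7 over all 32851 promoters and 21 over the 8803 promoters of genes at 10 CPM in a stage. On both strands, the E2F-like motif TTTCCCGC was in *Brca2* alone, and 1.07% of all promoters and 2.19% of those of genes at 10 CPM held it. CCAAT was in *Mre11a*, *Atm*, *Brca1* and *Rad54l* and in 37.4% of all promoters. The E2F-like motifs TTTGGCGC and TTTCGCGC and an NRF1-like motif were in 0 of the 6 windows.

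Some members start close to another gene on the opposite strand. Within 1000 bases of their starts in NCBIM37 lay *Npat* (*Atm*), *Nbr1* (*Brca1*), *Pomgnt1* (*Rad54l*) and *Emc3* (*Fancd2*). The pseudogene *1700065D16Rik*, whose span overlaps *Atr* as given above, also starts within that distance of the *Atr* start. *Nbr1*, a cargo receptor of autophagy, was at 32.1, 47.1, 29.2, 35.4 and 38.8 CPM from NGO to FGO beside 35.4, 44.7, 36.3, 43.03 and 39.2 CPM of *Brca1*. *Npat*, a regulator of histone genes, was at 12.4, 13.2, 7.61, 10.2 and 8.38 CPM. Its NGO and GO1 values lay close together, with no counting interval computed, whereas *Atm* was at 12.1 and 7.03 CPM in these stages. *Emc3*, a membrane protein insertase subunit, was at 82.9 CPM in NGO and 108.3 in GO1, opposite in direction to *Fancd2*.

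The genes with the most similar course over the 5 stages were found by the root mean square difference of log2(CPM + 1), centred on each gene, among 8671 genes. Nearest to *Mre11a* were *Nhlrc2*, *Adat1* and *Eif3a*, and *Eif3a*, a translation initiation subunit, was at 125.01 CPM in NGO and 57.8 in GO2. Nearest to *Nbn* were *Actr1a*, *Atp13a1* and *Cep68*, and nearest to *Atm* were *Pramef8*, *Dnajc10* and *Cstf2t*. Nearest to *Rad50* were *Stk38*, *Mrpl42* and *Zbtb48*, with *Mrpl42* at 211 CPM in NGO and 251 in FGO. Nearest to *Atr* were *Bsdc1*, *Ddx11* and *Prpf18*, and nearest to *Brca1* were *Rsrc2*, *Mob4* and *Klf16*. Nearest to *Brca2* were *Nudt2*, *Arhgap20os* and *Ccnh*, and *Ccnh*, a cyclin of transcription initiation, was at 69.9 CPM in NGO and 115.2 in GO1. Nearest to *Fancd2* were *Fam189b*, *Slc25a20* and *Hmmr*, with *Hmmr* at 184 CPM in NGO and 83.02 in GO1. When the mean over cells was used, only *Slc25a20* was again among the 3 nearest genes of its member.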

How the data were processed

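The authors assigned single-cell RNA-seq reads to cells by barcode, aligned them with Tophat to the mm9 transcriptome, removed duplicates by UMI and deposited raw counts of UMIs per gene and cell for the cells that passed their filters. The chromatin and methylation files of the study were not used here, and 0 columns of the count table were left out. Counts were summed per stage and divided by stage totals, with exact Poisson intervals for sums and exact binomial-split intervals for ratios. No doublet caller was run on these hand-picked cells, and no 2 cells had the same counts. Named genes are all 9 members, of each repair list up to 4 genes with the largest change past the size rule from NGO to GO1 and in later steps, and the 3 nearest genes by stage profile. Members and lists were chosen with earlier results of these data known. *Sem1*, *Abraxas1* and *Babam2* stand for *Shfm1*, *Fam175a* and *Bre* of the lists. Positions are from GENCODE vM1 on NCBIM37 (the build of mm9) and promoters from RefSeq on GRCm38.p6, counted from 1. Alternatives were DESeq2 1.42.0 and TMM (edgeR 4.0.16) factors, used for scaling only, the mean over cells, sums from which the 10 deepest cells per stage were left out, cells thinned to 20000 UMIs (50000 for shares of cells), 26 cells per stage, calls with no lower limit of CPM, at 50 CPM or at 1.5-fold and, chosen after the depths were seen, the mean over cells of at least 200000 UMIs. Simulated counts were used to test the calls. Python 3.11.15 (scipy 1.17.1, numpy 2.4.6, pandas 2.3.3), R 4.3.3 and matplotlib 3.10.9 were used with a fixed seed.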

Additional observations from a re-analysis of the deposited data

How the results depend on the processing

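No paired analysis was possible because each stage was 1 pooled sample and cell numbers pair no cells between stages. The number of members past the size rule moved with most settings. From NGO to GO1 it was 1, and became 0 with DESeq2 size factors, TMM factors, thinned cells, equal cell numbers, a 50 CPM limit and the mean over deep cells, 2 with the mean over cells (*Mre11a* added) and 5 at 1.5-fold (*Atm*, *Mre11a*, *Nbn* and, higher, *Brca2* added). Without the 10 deepest cells it stayed 1, with *Mre11a* in place of *Fancd2*. From NGO to FGO it was 1, and became 0 with DESeq2, TMM, equal cell numbers, 50 CPM, the mean over deep cells and without the 10 deepest cells, and 4 at 1.5-fold, while thinned cells gave 1 with *Atm* in place of *Fancd2*. From GO1 to GO2 it was 0, and became 1 at 1.5-fold and with equal cell numbers (*Atr*), 1 with the mean over cells (*Atm*) and 4 with thinned cells (*Atm*, *Brca1*, *Mre11a* and *Nbn*, all lower). Thinned cells gave 1 from GO2 to GO3 (*Brca1*, higher) and 1 from GO1 to FGO (*Atm*, lower), where the sums gave 0. From NGO to GO2 it was 4, and became 2 with DESeq2 and without the 10 deepest cells, 1 with TMM, 0 at 50 CPM, 3 with thinned cells, equal cell numbers and the mean over deep cells (each without *Fancd2*) and 5 at 1.5-fold (*Atr* added). From NGO to GO3 it was 2, and became 0 with DESeq2, TMM, 50 CPM and without the 10 deepest cells, 1 with equal cell numbers and 4 at 1.5-fold, while the mean over cells gave 2 with *Fancd2* in place of *Mre11a* and thinned cells 2 with *Atm* in place of *Nbn*. Of 72 member changes in 8 comparisons, 57 had a counting interval that excluded equal levels, and 42 of these kept their direction in every way of summing or scaling. No change that passed the rule in the sums as reported turned its direction in another setting. Calls made only in another setting could differ in direction from the sums, as for *Atm* from GO1 to FGO (ratio 1.02 in the sums). *Fancd2* had no value in thinned GO1 cells, which held 0 UMIs of it. Thinned sums rest on few UMIs (1 to 7 for *Fancd2* in the other stages). The causes of these moves were not tested, beyond the smaller counts that thinning leaves and the limits that a stricter or looser rule sets.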
